A study of Rattus norvegicus with 9 samples.

Results

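The genes described here are 45 listed cell cycle genes, 21 of the S phase and 24 of the G2 and M phases (G2M). They were chosen by symbol from the 41801 genes of the gene table and not by a cut on their level. Earlier results of these data were known when the lists were chosen. The S list holds Pcna, Mcm2 to Mcm7, Tyms, Rrm1, Rrm2, Gins2, Cdc6, Cdt1, Uhrf1, Hells, Cdca7, Ccne2, Cdc45, Exo1, Tipin and Slbp, and the G2M list holds Mki67, Top2a, Cdk1, Ccna2, Ccnb1, Ccnb2, Ube2c, Birc5, Tpx2, Nusap1, Cdc20, Aurka, Aurkb, Bub1, Bub1b, Plk1, Kif11, Kif23, Cenpe, Cenpf, Hmmr, Anln, Ckap2 and Smc4. All 45 passed the filter on low counts in the main fits of the 8 libraries. They were followed in cells from the tibial osteotomy site of Sprague-Dawley rats aged 6 to 8 weeks, profiled by droplet single-cell RNA sequencing, in which every captured RNA molecule carries a unique molecular identifier (UMI). Every rat had a circular osteotomy of 3 mm at the proximal tibia and a skin wound of 4 mm on the foot of the same side. The TO arm received no shock wave, and the TOE arm received radial shock waves at the osteotomy on days 2 and 4. The TO libraries were TO 2d 0h, TO 2d 4h, TO 4d 4h and TO 4d 24h. The TOE libraries were TOE 2d 4h, TOE 2d 24h, TOE 4d 4h and TOE 4d 24h. Names give the arm, the day of the session and the hours after it, and for TO, without sessions, the matching times. By the paper, the 24 h collections fall on the day after the session. Days 2 and 4 are thus session days, and 0 or 24 h joins collections of different days after injury. TOE 2d 4h and TOE 2d 24h were collected after the first session and before the second, and the TOE libraries of day 4 after the second. By the stated schedule the TOE libraries thus differ in their number of sessions, which cannot be told apart from the day within this arm. TO 2d 0h was the baseline taken before the session of day 2. TO 2d 24h was not analysed here. With 9 rats stated for 9 samples and 1 library per condition, no single condition had a replicate. The labels do not tie libraries to numbers of animals, so p-values measure the spread between libraries.

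A dividing cell copies its DNA in S phase and separates the copies in mitosis, and each step has its own genes. Before S phase the origin licensing factors Cdc6 and Cdt1 load the Mcm helicase onto DNA. In S phase Pcna clamps the polymerases to DNA, and Tyms, Rrm1 and Rrm2 make nucleotides. In G2 and M the kinase Cdk1 with cyclins A and B drives entry into mitosis, Top2a untangles the chromosomes, Bub1 and Bub1b guard the spindle checkpoint, and Ube2c and Cdc20 help destroy the cyclins. The bone marrow, which an osteotomy opens, is a main site of cell division in the adult, where large precursor cells of the B, erythroid and granulocyte lineages divide and their mature progeny leave the cycle. Mature neutrophils do not divide, and their values are given beside those of the other groups as the level in a cell type that should lack division.

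The promoters of the 2 lists are shown because they differ in letters that textbooks tie to S and to G2M transcription: E2F sites in S promoters, and the cell cycle gene homology region (CHR) with CCAAT boxes in G2M promoters. RefSeq promoters of the rat build GRCr8 were at hand for 37 of the 45 genes, 17 S and 20 G2M. Cdc6, Mcm4, Tpx2, Ccne2, Ube2c, Rrm2, Ccna2 and Aurkb were not matched. The 250 bases before the gene start were searched on both strands for TTTCCCGC or TTTGGCGC (E2F), for TTTGAA or TTCGAA or TTTAAA (CHR) and for CCAAT, and CHR and CCAAT matches may overlap. Capitals mark the matches, and a match is a description of letters and not of a bound site. The sequences are written 5′ to 3′ on the strand of the gene and end at the base before its start.
Pcna, chr3:139955821-139956070, minus strand: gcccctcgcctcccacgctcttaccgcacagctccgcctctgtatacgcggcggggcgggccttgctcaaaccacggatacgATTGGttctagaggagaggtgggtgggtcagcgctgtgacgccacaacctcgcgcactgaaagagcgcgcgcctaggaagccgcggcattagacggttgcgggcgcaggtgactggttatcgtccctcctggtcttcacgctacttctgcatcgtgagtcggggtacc
Mcm5, chr19:13488563-13488812, plus strand: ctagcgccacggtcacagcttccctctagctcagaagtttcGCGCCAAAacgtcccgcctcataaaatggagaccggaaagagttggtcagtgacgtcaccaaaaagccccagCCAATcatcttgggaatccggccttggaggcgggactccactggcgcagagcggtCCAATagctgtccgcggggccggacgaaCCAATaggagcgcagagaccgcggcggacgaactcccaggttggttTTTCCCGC
Mcm6, chr13:42404353-42404602, minus strand: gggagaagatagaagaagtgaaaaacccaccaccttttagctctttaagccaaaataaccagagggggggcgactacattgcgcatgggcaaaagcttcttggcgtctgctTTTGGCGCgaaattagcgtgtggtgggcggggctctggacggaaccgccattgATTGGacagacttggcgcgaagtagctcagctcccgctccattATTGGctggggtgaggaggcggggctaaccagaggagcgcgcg
Mki67, chr1:199952594-199952843, minus strand: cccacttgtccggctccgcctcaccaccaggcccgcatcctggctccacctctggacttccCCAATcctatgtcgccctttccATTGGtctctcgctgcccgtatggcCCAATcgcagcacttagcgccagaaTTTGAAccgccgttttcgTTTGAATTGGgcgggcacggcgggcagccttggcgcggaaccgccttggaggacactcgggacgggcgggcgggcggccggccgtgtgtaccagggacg
Top2a, chr10:84473094-84473343, minus strand: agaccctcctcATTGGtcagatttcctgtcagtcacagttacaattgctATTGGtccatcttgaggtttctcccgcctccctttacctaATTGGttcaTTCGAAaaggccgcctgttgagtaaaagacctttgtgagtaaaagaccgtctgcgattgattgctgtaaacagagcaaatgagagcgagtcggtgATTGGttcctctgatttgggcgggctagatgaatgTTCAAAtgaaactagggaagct
Cdk1, chr20:19265043-19265292, plus strand: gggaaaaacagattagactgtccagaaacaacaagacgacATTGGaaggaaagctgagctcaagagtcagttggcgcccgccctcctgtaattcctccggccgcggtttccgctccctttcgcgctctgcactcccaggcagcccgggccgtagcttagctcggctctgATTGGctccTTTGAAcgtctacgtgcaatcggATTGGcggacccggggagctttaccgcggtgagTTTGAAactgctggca
Ccnb1, chr2:33655226-33655475, minus strand: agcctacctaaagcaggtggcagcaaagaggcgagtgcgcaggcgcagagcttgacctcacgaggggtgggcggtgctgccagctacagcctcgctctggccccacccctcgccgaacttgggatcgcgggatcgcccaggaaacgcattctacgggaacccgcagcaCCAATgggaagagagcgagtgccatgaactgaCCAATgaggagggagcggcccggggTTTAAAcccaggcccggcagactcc

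Mcm5 and Mcm6, subunits of the replicative helicase, carried E2F letters, and Mki67, Top2a, Cdk1 and Ccnb1 carried CHR letters, whereas Pcna carried neither. Over the lists, the E2F letters stood in 9 of 17 S promoters and in 0 of 20 G2M promoters, beside 368 of 27457 promoters of all genes (1.34%). The CHR letters stood in 4 of 17 S promoters and in 20 of 20 G2M promoters, beside 7681 of all promoters (28.0%). CCAAT stood in 10 of 17 S and 16 of 20 G2M promoters, beside 9920 of all promoters (36.1%). The E2F letters thus marked S promoters only among those matched, while CCAAT occurred in both lists.

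After filtering, 111646 of 116711 barcodes were kept, in libraries of 95954800 to 144146202 UMIs with medians of 4522 to 5668 UMIs per barcode. Clusters were made without the 45 genes, the other cell cycle genes listed here and histone genes, and were named by marker genes. The B-lineage-like class held 63637 cells, the erythroid-like class 4295, the myeloid precursor-like class 3876 (1457 granulocyte-monocyte progenitor-like, GMP, and 2419 defensin-rich neutrophil precursor-like cells) and the stromal-like class, of mesenchymal cells, 1218. Markers were highest in their own class in every library for 7 of 7 detected B lineage markers, 12 of 12 erythroid, 6 of 6 GMP, 6 of 7 defensin-rich precursor (not Defal1) and 11 of 12 mesenchymal markers (not Thy1). Only the 4 classes were compared, and clusters were named by these markers, so the counts describe the naming and do not test it. Any pair of libraries shared 40 to 110 barcodes, at most 0.783% of the smaller library, and none with identical counts. TO 2d 4h supplied 95.5% of a cluster of 2088 cells that raised haemoglobin and GMP genes together and was given no name. Erythroid-like results that rest on TO 2d 4h are given with that cluster where it changed them. The cluster was not counted as myeloid precursor-like in any setting.

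Of the 4 classes, myeloid precursor-like and erythroid-like cells had the higher shares of cycling cells, and B-lineage-like and stromal-like cells had lower shares, with the lowest median in stromal-like cells. Each cell was thinned to 2000 UMIs, and a cell with at least 3 UMIs of the 45 genes was counted as cycling, a count of RNA and not an assigned phase. The shares depend on this cut: thinned to 1000 UMIs the medians were 62.7% in erythroid-like, 49.9% in myeloid precursor-like, 27.3% in B-lineage-like and 9.91% in stromal-like cells. The cycling share of myeloid precursor-like cells was lowest at 72.3% in TO 4d 24h, had a median of 78.6% and was highest at 88.4% in TOE 2d 4h. That of erythroid-like cells ran from 61.4% in TOE 2d 24h over a median of 71.6% to 100% in TOE 4d 24h, where all 66 cells passed (exact Clopper-Pearson interval from 94.6%). The share of B-lineage-like cells ran from 29.4% in TOE 2d 24h over a median of 40.1% to 49.4% in TOE 2d 4h. That of stromal-like cells ran from 4.95% in TO 4d 24h over a median of 25.6% to 33.0% in TOE 2d 24h. The ranges of myeloid precursor-like and B-lineage-like cells did not overlap, and neither did those of erythroid-like and B-lineage-like cells, whereas erythroid-like and myeloid precursor-like shares overlapped. Stromal-like and B-lineage-like shares also overlapped in range, and in TOE 2d 24h the stromal-like share of 33.0% lay above the B-lineage-like share of 29.4%, as it did without Pcna (32.2% and 26.7%). The difference between these classes was not tested.

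The depth of the classes differed, which is why the cells were thinned. Median UMIs per cell and library were 4142 to 4707 in B-lineage-like cells, 13493 to 24931 in myeloid precursor-like cells and 17651 to 41718 in stromal-like cells. In erythroid-like cells they were 4912 to 9069 in 7 libraries and 31451 in TOE 4d 24h, the library with the share of 100%. Without thinning, the median shares were 61.0% in B-lineage-like, 89.2% in erythroid-like, 98.0% in myeloid precursor-like and 89.0% in stromal-like cells, so that the low stromal share was visible only at equal depth. Thinning left out 5981 B-lineage-like, 565 erythroid-like, 159 myeloid precursor-like and 9 stromal-like cells as too shallow.

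In mature neutrophil-like cells, with medians of 2995 to 4615 UMIs, the share was 7.88% to 26.9% with a median of 18.1%. Most of this level rested on Pcna, the sliding clamp of DNA replication and repair, which gave 37.8% of their UMIs of the 45 genes (5875 UMIs) but 4.46% to 7.84% in the 4 classes. With Pcna left out, a choice made once these values were known, the median share was 5.9% in mature neutrophil-like cells, 36.5% in B-lineage-like, 70.9% in erythroid-like, 76.0% in myeloid precursor-like and 23.2% in stromal-like cells. The B-lineage-like, erythroid-like and myeloid precursor-like shares lay above the neutrophil share of the same library in 8 of 8 libraries, with and without Pcna. The stromal-like share lay above it in 6 of 8 libraries with Pcna. Without Pcna it lay above in 8 of 8, but in TO 4d 24h the values were 4.95% and 4.85%, which is the neutrophil level.

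**Figure D1:**
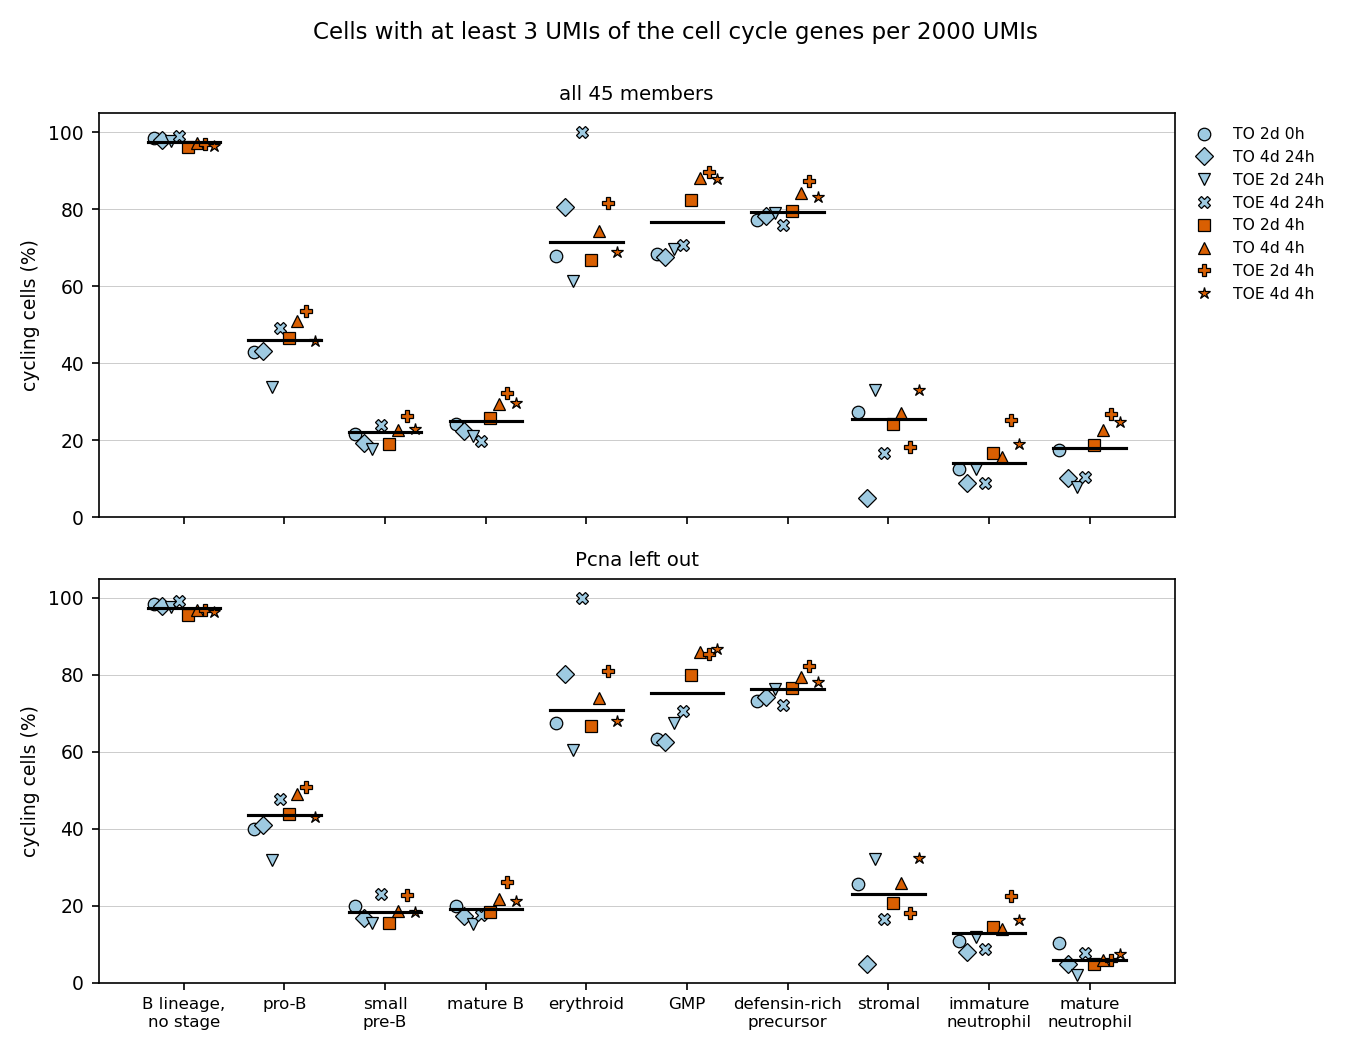
Share of cells with at least 3 UMIs of the cell cycle genes after thinning to 2000 UMIs (vertical axis, percent) for 10 cell groups, with all 45 genes (upper panel) and without Pcna (lower panel). Each symbol is a library (orange, collected at 4 h; blue, at 0 or 24 h) and each bar the median over libraries. The neutrophil shares dropped without Pcna, from a median of 18.1% to 5.9%, and the unstaged B lineage from 97.5% to 97.2%.

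Within the B lineage, cycling cells were concentrated in a group of 13214 cells that carried B lineage markers and were not assigned to a stage, with shares of 96.0% to 99.1%. Its 2 clusters were led by histone genes and by Rad51b, Fam111a and E2f7, so although the 45 genes were not used for clustering, these clusters still followed the cell cycle, and their share is a description of how they were made. Pro-B-like cells had a median share of 46.1% (33.7% to 53.7%), small pre-B-like cells 22.2% (17.7% to 26.4%) and mature B-like cells 25.0% (19.8% to 32.3%). The unstaged group was 12.7% of B-lineage-like cells in TOE 2d 24h, which had the lowest B-lineage-like share, and 26.8% in TOE 2d 4h, which had the highest. Of 39054 cycling cells of all types, 31.9% were unstaged B lineage, 17.3% small pre-B-like and 11.9% monocyte-like cells. The 2 kinds of myeloid precursor were alike in median, with 76.6% in GMP-like and 79.2% in defensin-rich precursor-like cells. Immature neutrophil-like cells, the next stage, had a median of 14.1% (8.85% to 25.3%), below the median of their precursors. With Pcna they lay above mature neutrophil-like cells in 1 of 8 libraries. Without Pcna they lay above in 8 of 8, with medians of 12.9% and 5.9%.

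The balance of S and G2M transcripts in the classes is given as values, and a difference between classes was not tested. Pooled over libraries, there were 0.50 S UMIs per G2M UMI in B-lineage-like cells, 0.60 in erythroid-like, 0.71 in myeloid precursor-like and 0.46 in stromal-like cells. Over single libraries the value was 0.376 to 0.598 in B-lineage-like, 0.439 to 0.729 in erythroid-like, 0.532 to 0.887 in myeloid precursor-like and 0.324 to 0.779 in stromal-like cells, so that the ranges of all classes overlapped. GMP-like cells had 0.83 and the defensin-rich precursors 0.61, whereas immature neutrophil-like cells had 0.26, the value with the smallest part of S transcripts among these groups. Mature neutrophil-like cells had 1.45 with Pcna and 0.53 without it. Without Pcna the pooled values were 0.43 in B-lineage-like, 0.53 in erythroid-like, 0.58 in myeloid precursor-like and 0.39 in stromal-like cells, in the same order. The order depended on the weight of deep cells. With every cell weighted equally the values were 0.52 in B-lineage-like, 0.43 in erythroid-like, 0.68 in myeloid precursor-like and 0.48 in stromal-like cells, so that erythroid-like cells went from the second highest to the lowest.

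Single cells often held transcripts of both lists. At 2000 UMIs, 52.3% of erythroid-like cells had at least 2 UMIs of each list, 2.68% had them of S genes alone and 21.9% of G2M genes alone. In myeloid precursor-like cells these shares were 41.5%, 20.3% and 24.2%, and in B-lineage-like cells 23.4%, 10.5% and 14.8%. In stromal-like cells they were 9.26%, 8.52% and 15.6%. In mature neutrophil-like cells they were 2.01%, 16.5% and 7.35%. These shares for S transcripts alone depended on Pcna. Without it, S transcripts alone were found in 7.28% of B-lineage-like, 2.41% of erythroid-like, 17.6% of myeloid precursor-like and 7.03% of stromal-like cells, beside 3.21% of mature neutrophil-like cells. The neutrophil share of the same library was then exceeded in 8 of 8 libraries by B-lineage-like, myeloid precursor-like and stromal-like cells and in 3 of 8 by erythroid-like cells, whereas with Pcna it was exceeded in 1, 5, 0 and 1 libraries in this order. The share with both lists lay above that of neutrophils in 8 of 8 libraries for B-lineage-like, erythroid-like and myeloid precursor-like cells, with and without Pcna. For stromal-like cells it did so in 7 of 8 libraries with Pcna and 8 of 8 without, and in TO 4d 24h it was 0.99% against 1.35% with Pcna.

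**Figure D2:**
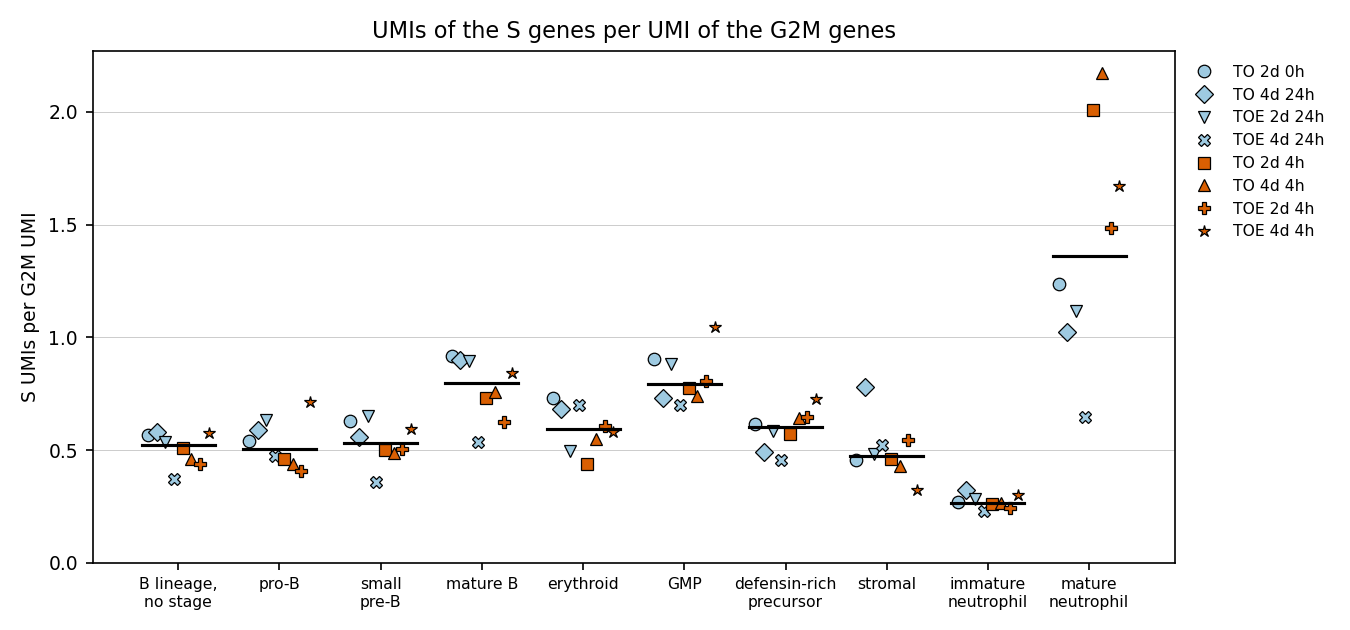
UMIs of the 21 S genes per UMI of the 24 G2M genes (vertical axis) in 10 cell groups. Each symbol is a library with at least 20 cells, coloured by collection hour (orange, 4 h; blue, 0 or 24 h), and bars are medians. Pooled over libraries, mature neutrophils had 1.45 and immature neutrophils 0.26.

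Levels of single genes were compared between classes by summing UMIs per library and class and testing all genes with edgeR's quasi-likelihood test, with the library as a block and Benjamini-Hochberg adjustment over 16962 genes. A gene was called at an adjusted p below 0.05. Because the classes differ in most genes, the share of all genes called is given beside each count. Levels in the text are CPM, the UMIs of a gene per 1000000 UMIs of the class in a library, and fold changes are on the log2 scale of the fit.

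Erythroid-like cells held more of most cell cycle transcripts than B-lineage-like cells as a whole. Pooled over libraries, the 45 genes summed to 6583 CPM in erythroid-like cells, below the 9555 of the unstaged B lineage. The sum was 4512 in pro-B-like, 1525 in small pre-B-like and 1300 in mature B-like cells. A difference from the single B lineage groups was not tested. Of the 45 genes, 38 were called, 36 higher and 2 lower, where 70.3% of all genes were called (28.4% higher and 41.9% lower). The median log2 fold change was 0.89 over the 45 genes and −0.24 over all genes. Of the S genes 20 were higher and 1 lower, and of the G2M genes 16 were higher, 1 was lower and 7 were not called. The 3 largest rises were in Cdc6, Tyms and Ccnb1. Cdc6, which loads the helicase, had 69.1 to 104 CPM in erythroid-like cells (median 89.5) and 28.8 to 50.2 in B-lineage-like cells (median 34.9), with no overlap, and a log2 fold change of 1.68 (SE 0.15, adjusted p = 1.24e-10). Tyms, thymidylate synthase, rose by 1.66 (SE 0.15, adjusted p = 5.52e-11), from a median of 47.9 to 124 CPM. Ccnb1, cyclin B1, rose by 1.64 (SE 0.24, adjusted p = 5.85e-07), with 118 to 214 CPM against 42.9 to 126, so that the lowest erythroid-like library lay below the highest B-lineage-like one.

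The 2 genes that fell in erythroid-like cells were Cdca7, a Myc and E2F target linked to the chromatin remodeller Hells, and Bub1, a spindle checkpoint kinase. Cdca7 had 19.1 to 81.3 CPM in erythroid-like cells (median 38.0) and 70.3 to 140 in B-lineage-like cells (median 102), a log2 fold change of −1.04 (SE 0.13, adjusted p = 4.80e-08). Its ranges overlapped through TOE 4d 24h, the erythroid library with 66 deep cells. Bub1 had a log2 fold change of −0.38 (SE 0.16, adjusted p = 0.0408), and this call was lost with the size factors of DESeq2 and when any of 6 libraries was left out. Top2a, which untangles DNA, was not called, with medians of 345 and 468.5 CPM and a log2 fold change of −0.05 (SE 0.18, adjusted p = 0.833). Kif11, Smc4, Cenpe, Bub1b, Nusap1 and Ckap2 were not called either.

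Mki67, the gene of the Ki-67 proliferation antigen, was at 493 to 1381 CPM in erythroid-like cells (median 822), 346 to 709 in B-lineage-like (median 503), 223 to 412 in myeloid precursor-like (median 288) and 42.4 to 147 in stromal-like cells (median 103). In mature neutrophil-like cells it was at 24.9 to 54.3. The order of medians was therefore erythroid, B lineage, myeloid precursor and stromal, where only the stromal range lay apart from those of all the other classes. The log2 fold change of Mki67 against B-lineage-like cells was 1.06 in erythroid-like (SE 0.16, adjusted p = 7.27e-07), −0.38 in myeloid precursor-like (SE 0.15, adjusted p = 0.0269) and −2.20 in stromal-like cells (SE 0.16, adjusted p = 8.12e-13). After thinning to 2000 UMIs, a UMI of Mki67 was found in 62.2% of erythroid-like, 42.3% of myeloid precursor-like and 25.2% of B-lineage-like cells. The share was 10.8% in stromal-like and 6.51% in mature neutrophil-like cells.

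Pcna did not separate the haematopoietic classes from mature neutrophils. Its median was 231 CPM in B-lineage-like, 270.3 in erythroid-like and 231 in myeloid precursor-like cells, beside 259 in mature neutrophil-like and 66.4 in stromal-like cells. The ranges of the first 4 of these groups overlapped, from 70.2 to 441 in mature neutrophil-like cells. Mcm5, by contrast, had a median of 66.1 in B-lineage-like, 92.7 in erythroid-like, 49.7 in myeloid precursor-like, 17.0 in stromal-like and 4.64 in mature neutrophil-like cells. Cdk1, the mitotic kinase, had medians of 65.4, 104, 56.0, 29.4 and 5.11 in these groups in the same order. Mature neutrophil-like cells thus lay below the other groups for Mcm5 and Cdk1 but not for Pcna.

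**Figure D3:**
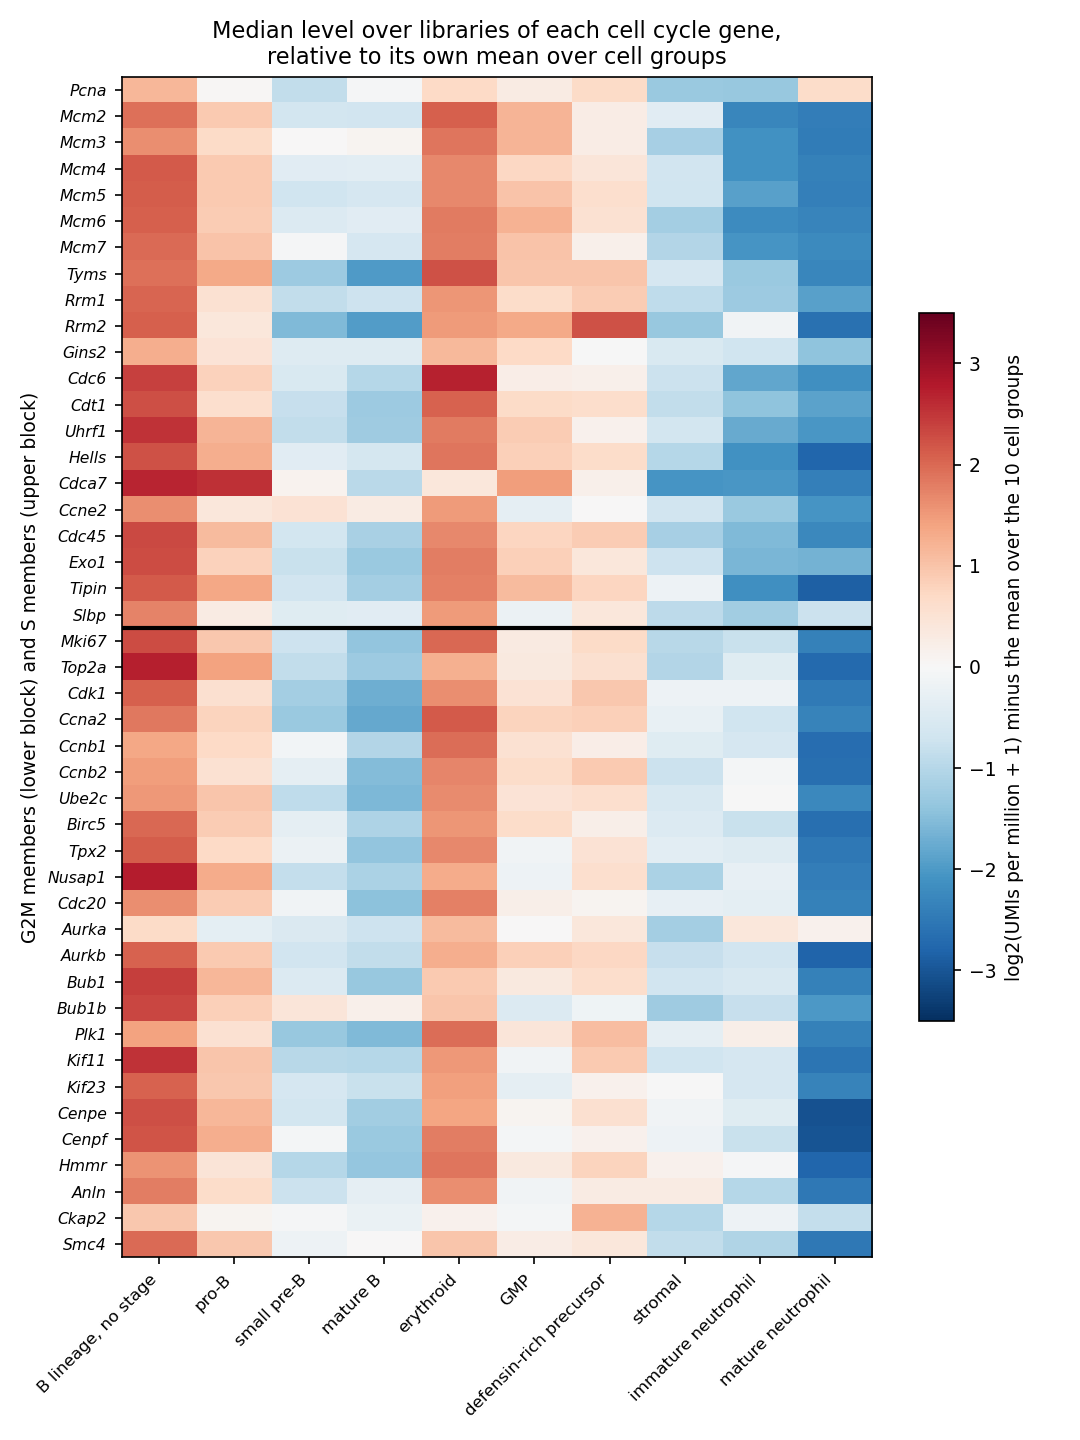
Heat map of the 45 genes (rows, S genes above the line and G2M genes below) in 10 cell groups (columns). Colour is log2(CPM + 1) of the median over libraries, minus the mean of the gene over the groups, from low (blue) to high (red). Most genes are highest in the unstaged B lineage group, and Pcna in mature neutrophils had a median of 259 CPM, beside 270.3 in erythroid-like cells.

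Myeloid precursor-like and B-lineage-like cells differed in single genes and not in a common direction. Of the 45 genes 25 were called, where 72.0% of all genes were called (28.9% higher and 43.1% lower), and 8 were higher and 17 lower with the scaling of edgeR (TMM). With the size factors of DESeq2 the 25 calls were 16 higher and 9 lower, because the median of all genes moved from −0.27 to −0.09. No direction is therefore given for the list in the fit. The same change of scaling moved the median of all genes from −0.24 to −0.08 in erythroid-like and from −0.10 to 0.13 in stromal-like cells, with 39 of 40 called members higher in erythroid-like and 41 of 41 lower in stromal-like cells. Rrm2, the small subunit of ribonucleotide reductase, was at 49.0 to 82.8 CPM in myeloid precursor-like and 26.9 to 55.9 in B-lineage-like cells (medians 74.7 and 40.7), a log2 fold change of 1.25 (SE 0.19, adjusted p = 1.45e-06). Ckap2, a spindle protein, and Tyms had log2 fold changes of 0.79 (SE 0.17, adjusted p = 0.000134) and 0.54 (SE 0.14, adjusted p = 0.00159). In CPM, Rrm2 and Ckap2 were each higher in 6 of 8 libraries and Tyms in 4 of 8, so that in CPM the rise of Tyms did not hold in the other libraries.

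These values depend on which cells made up the class. Under the stricter cell filter, and with the cell cycle genes kept in the clustering, no defensin-rich cluster was named, and the class held 1905 and 1242 cells, all GMP-like. Rrm2 then had log2 fold changes of 0.01 and 0.42, neither called, and Ckap2 turned to −0.24 and −0.22. The 3 largest falls were in Bub1b, Nusap1 and Cenpf. Bub1b, a checkpoint protein, was at 17.7 to 31.1 CPM in myeloid precursor-like and 61.4 to 131 in B-lineage-like cells, with no overlap, and fell by 1.44 on the log2 scale (SE 0.17, adjusted p = 1.01e-08). Nusap1, which bundles spindle microtubules, fell by 1.05 (SE 0.24, adjusted p = 0.000339), and Cenpf, a kinetochore protein, fell by 0.92 (SE 0.25, adjusted p = 0.00157).

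Against erythroid-like cells, myeloid precursor-like cells had 2 genes higher and 40 lower of 42 called, where 64.1% of all genes were called (32.0% higher and 32.1% lower), and the median was −1.02 over the 45 genes and −0.02 over all genes. Cdc6 fell by 2.39 (SE 0.16, adjusted p = 2.41e-13), from a median of 89.5 to 14.8 CPM. Cenpf fell by 1.69 (SE 0.25, adjusted p = 1.22e-06) and Ccnb1 fell by 1.55 (SE 0.24, adjusted p = 1.72e-06). The genes that were higher were Cdca7, by 0.67 (SE 0.13, adjusted p = 5.80e-05), and Ckap2, by 0.65 (SE 0.17, adjusted p = 0.00144). The value of Ckap2 again turned in the GMP-like cells alone, to −0.53 and −0.36. Pcna, Rrm2 and Bub1 were not called between these classes.

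Stromal-like cells held less of nearly all of the 45 transcripts than each other class as a whole. The unstaged B lineage gave 1668166 of the 2079780 UMIs of the 45 genes in B-lineage-like cells. Pooled over libraries, these genes summed to 1425 CPM in stromal-like, 1525 in small pre-B-like and 1300 in mature B-like cells. They summed to 4512 in pro-B-like cells and 9555 in the unstaged group. A difference of stromal-like cells from the single B lineage groups was not tested. Against B-lineage-like cells 43 were lower and none higher, where 78.3% of all genes were called (41.7% lower), with medians of −1.62 over the 45 genes and −0.10 over all genes. Cdca7 fell by 3.59 (SE 0.16, adjusted p = 7.90e-18), from a median of 102 to 6.14 CPM. Top2a fell by 2.42 (SE 0.19, adjusted p = 3.32e-12), from a median of 468.5 to 71.2, and Bub1b by 2.39 (SE 0.19, adjusted p = 2.23e-12). Plk1, a mitotic kinase, and Anln, the cytokinesis protein anillin, were not called.

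Against erythroid-like cells all 45 genes were lower, where 72.7% of all genes were called (33.6% lower), with medians of −2.37 over the 45 genes and 0.09 over all genes. Every one of the 45 was lower in 8 of 8 libraries. The largest falls were in Cdc6, by 3.70 (SE 0.19, adjusted p = 2.67e-16), Mki67, by 3.26 (SE 0.17, adjusted p = 4.25e-16), and Cdt1, by 3.22 (SE 0.19, adjusted p = 8.42e-15). Against myeloid precursor-like cells 43 were lower and none higher, where 72.0% of all genes were called (34.6% lower), with medians of −1.46 and 0.03. Under the stricter cell filter and with the cell cycle genes kept in the clustering, 34 and 36 of the 45 were called (75.6% and 80.0%). These counts lay near the 69.8% and 71.7% of all genes called there. In these settings the myeloid class was GMP-like alone, and the stromal-like class held 1721 and 2392 cells instead of 1218. The part of each change was not tested. In the main fit Cdca7 fell by 3.22 (SE 0.16, adjusted p = 1.50e-16), Rrm2 by 3.06 (SE 0.23, adjusted p = 1.01e-12) and Pcna by 2.16 (SE 0.12, adjusted p = 3.98e-15). In summed cells, fewer dividing cells and less of a transcript per cell cannot be told apart.

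**Figure D4:**
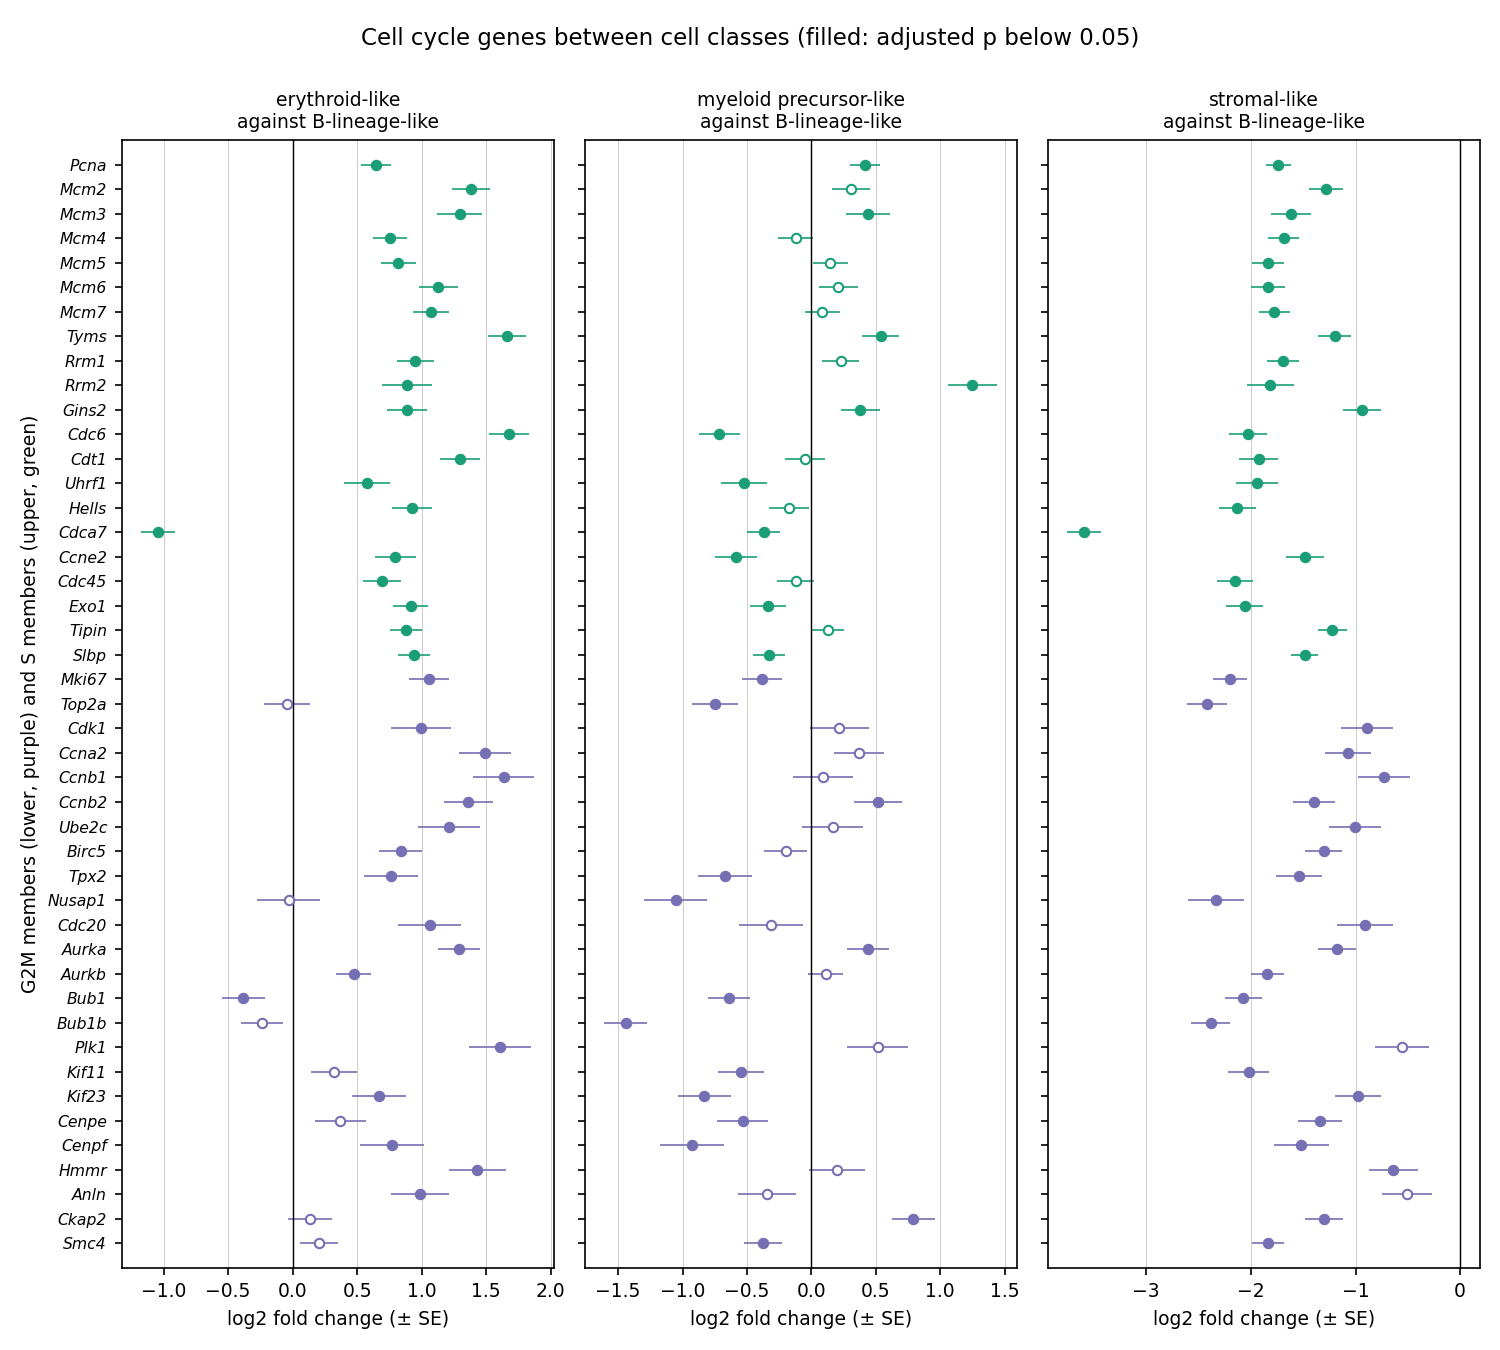
Log2 fold change with its SE (horizontal axis) of each of the 45 genes (rows, S genes in green above and G2M genes in purple below) against B-lineage-like cells. Filled points have an adjusted p below 0.05. Most erythroid-like values lie right of 0, all stromal-like values lie left of 0, and myeloid precursor-like values lie on both sides, from −1.44 (Bub1b) to 1.25 (Rrm2).

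Other genes of the cell cycle, from lists of 17 genes of G1 entry, 40 of replication, 49 of mitosis and 14 inhibitors, were counted in the same comparisons. In erythroid-like against B-lineage-like cells, 8 of 17 G1 genes were higher and 5 lower, 32 of 40 replication genes were higher and 2 lower, and 36 of 49 mitosis genes were higher and 3 lower, where 28.4% of all genes were higher and 41.9% lower. In stromal-like against B-lineage-like cells 15 of 17 G1, 39 of 40 replication and 45 of 49 mitosis genes were lower, where 41.7% of all genes were. Of the G1 genes 2 were higher, Ccnd1 among them. The pathway genes with the largest differences of stromal-like cells were higher in them. Ccnd1, cyclin D1, which starts the cycle in response to growth factors, was higher in stromal-like than in B-lineage-like cells by a log2 fold change of 5.41 (SE 0.25, adjusted p = 1.52e-17), and the inhibitors Cdkn2a and Cdkn1a by 4.60 (SE 0.36, adjusted p = 2.82e-12) and 4.35 (SE 0.32, adjusted p = 9.05e-13). Cdkn1c, which encodes the inhibitor p57, was higher by 5.56 against erythroid-like (SE 0.30, adjusted p = 6.52e-16) and by 5.31 against myeloid precursor-like cells (SE 0.28, adjusted p = 5.19e-16).

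The 3 largest pathway differences of myeloid precursor-like from B-lineage-like cells were in Gadd45a, Cdkn1a and Cdc25b. Gadd45a, a DNA damage response gene, was higher by 3.20 (SE 0.20, adjusted p = 1.96e-14) and Cdkn1a, which encodes p21, by 2.84 (SE 0.30, adjusted p = 1.87e-09), while Cdc25b, a phosphatase that activates Cdk1, was lower with −2.83 (SE 0.28, adjusted p = 6.55e-10). In erythroid-like cells Ccng2, an atypical cyclin, was at −3.24 (SE 0.17, adjusted p = 1.14e-15), Pimreg, a mitotic gene, at −3.16 (SE 0.65, adjusted p = 9.75e-05), and Klf2, a transcription factor of quiescent lymphocytes, at −2.80 (SE 0.38, adjusted p = 1.53e-07) against B-lineage-like cells. Against erythroid-like cells, Cdc25b was lower in myeloid precursor-like cells as well, with −3.43 (SE 0.30, adjusted p = 3.91e-11), and Klf2 was higher by 3.25 (SE 0.38, adjusted p = 2.03e-08). Against B-lineage-like cells, 4 of the 14 inhibitors were higher and 6 lower in erythroid-like cells (28.4% and 41.9% of all genes), 3 and 7 in myeloid precursor-like (28.9% and 43.1%) and 4 and 7 in stromal-like cells (36.6% and 41.7%), which is close to the shares of all genes in the first of these comparisons.

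The conditions were compared within each class in a fit of arm, day and hour as additive factors, with 4 libraries at each level, which takes libraries of different day and hour as replicates. Between TOE and TO, edgeR called 0 of the 45 genes in B-lineage-like, erythroid-like, myeloid precursor-like and stromal-like cells, where 0.00% of all genes were called in each class. At an unadjusted p below 0.05 the counts were 0, 0, 1 and 0, where 3.16%, 1.98%, 2.31% and 2.19% of all genes passed. DESeq2 called 0 members in each class, where 0.0107%, 0.0154%, 0.00748% and 0.0151% of all genes were called. The median log2 fold change of the 45 genes was 0.05 in B-lineage-like, −0.09 in erythroid-like, 0.15 in myeloid precursor-like and 0.02 in stromal-like cells. In B-lineage-like cells 5 of 21 S values (median −0.15) and 22 of 24 G2M values (median 0.20) were positive. Positive S and G2M values were 4 and 5 in erythroid-like, 20 and 21 in myeloid precursor-like, and 6 and 19 in stromal-like cells. These counts of directions were not tested. Mki67 had log2 fold changes of −0.34 (SE 0.17, adjusted p = 0.844) in B-lineage-like and −0.01 (SE 0.13, adjusted p = 0.9997) in myeloid precursor-like cells. In B-lineage-like cells Mki67 thus lay opposite to most G2M values. No member separated the 4 TOE from the 4 TO libraries in any class, where 1.38% of all genes did so in B-lineage-like, 1.02% in erythroid-like, 0.958% in myeloid precursor-like and 1.26% in stromal-like cells, in CPM. With TMM scaling Mcm3 and Slbp were lower in all TOE than in all TO libraries in erythroid-like cells, where 0.447% of all genes were.

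In the matched pairs the TOE to TO ratio of the cycling share of B-lineage-like cells was above 1 in some pairs and below 1 in another. At 2d 4h it was 1.23, with an exact interval of 1.17 to 1.29 given the summed count, then 0.900 at 4d 4h (0.853 to 0.950) and 1.13 at 4d 24h (1.07 to 1.19), and the last was 0.997 without thinning. Small pre-B-like cells had 1.38 (1.25 to 1.52), 1.01 (0.912 to 1.12) and 1.24 (1.12 to 1.37), where the shares of the last pair were 44.6% and 43.9% without thinning. Mature B-like cells had 1.26 (1.10 to 1.44), 1.01 (0.872 to 1.16) and 0.881 (0.735 to 1.05), pro-B-like cells 1.16 (0.944 to 1.42), 0.900 (0.684 to 1.18) and 1.14 (0.858 to 1.51), and the unstaged B lineage 1.01, 0.992 and 1.01. The make-up of the class moved with its ratio, since the unstaged group was 26.8% of B-lineage-like cells in TOE and 22.4% in TO at 2d 4h. In the pair 4d 4h it was 18.9% and 24.0%, and in the pair 4d 24h 21.8% and 19.7%, and its part in the ratio was not tested.

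In erythroid-like cells the ratios of these pairs were 1.22, 0.926 and 1.24. The TOE and TO shares, with exact Clopper-Pearson intervals, were 81.7% (78.0% to 85.0%) and 66.8% (62.9% to 70.4%) in the pair 2d 4h. The shares at 4d 4h came to 68.9% (64.7% to 72.8%) and 74.3% (70.2% to 78.2%), and in the pair 4d 24h 100% (from 94.6%) and 80.6% (77.3% to 83.5%). The first ratio became 0.983 when the mixed cluster of TO 2d 4h was counted as erythroid-like, a setting added with the data in view. In myeloid precursor-like cells the ratios were 1.10, 0.998 and 1.03. The shares were 88.4% (85.7% to 90.7%) and 80.5% (77.0% to 83.8%) at 2d 4h, where the intervals did not overlap. They leave out the mixed cluster, which raised GMP genes too. It held 771 cells used from TO 2d 4h, 97.9% of them cycling, beside 550 in the class. From TOE 2d 4h it held 22 cells, 100% cycling, beside 664. Its part in this ratio was not tested. The shares at 4d 4h came to 85.1% (81.3% to 88.5%) and 85.3% (81.9% to 88.3%), and in the pair 4d 24h 74.2% (69.8% to 78.2%) and 72.3% (67.7% to 76.5%). In stromal-like cells the ratios were 0.753 (0.299 to 1.82), 1.22 (0.800 to 1.86) and 3.37 (1.15 to 11.9), the last from 14 of 84 against 5 of 101 cells. The last became 0.938 without thinning, and the one at 4d 4h became 0.653 under the stricter cell filter and 0.641 both with cell cycle genes kept in the clustering and at Leiden resolution 2. The intervals of the ratios come from the split of the summed count of cycling cells and are wider than the counting error of a share, the more so at high shares, which is why the intervals of the shares are given for the erythroid-like and myeloid precursor-like cells. All these intervals concern 1 library per condition and hold no spread between animals.

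Between days 4 and 2, edgeR called 0 of the 45 genes in each of the 4 classes, where 0.00% of all genes were called in B-lineage-like, erythroid-like and stromal-like and 0.00748% in myeloid precursor-like cells. At an unadjusted p below 0.05 there was 1 gene, in stromal-like cells, Mcm5 (named after its value was seen), with a log2 fold change of −0.69 (SE 0.30, adjusted p = 0.9998). Of all genes, 1.83% passed at that level in B-lineage-like, 1.69% in erythroid-like, 2.28% in myeloid precursor-like and 2.11% in stromal-like cells. DESeq2 called 0 members, where 0.0320%, 0.00771%, 0.220% and 0.00754% of all genes were called in the same order. In myeloid precursor-like cells it gave an adjusted p for 43 of the 45 genes. The median log2 fold change of the 45 genes in stromal-like cells was −0.35, beside 0.02 over all genes, and 2 of 21 S and 1 of 24 G2M values were positive. The hours of day 4 differed. Summed G2M genes were at 264 and 516 CPM in TO 4d 24h and TOE 4d 24h, but 1093 and 1209 in TO 4d 4h and TOE 4d 4h. On day 2 they were at 808 and 642 in TO 2d 4h and TOE 2d 4h, and 1170 and 1038 in TO 2d 0h and TOE 2d 24h. A fall at both hours was thus not seen, and the part of the hour was not tested. No member separated the libraries of day 4 from those of day 2 in any class, where 0.635% of all genes did so in B-lineage-like, 0.801% in erythroid-like, 0.853% in myeloid precursor-like and 1.11% in stromal-like cells, in CPM.

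Collection hour was the factor with member calls, in myeloid precursor-like cells, and the difference between classes in this effect was not tested. Here 3 of the 45 genes were called at 4 h against 0 or 24 h, all higher, where 6.24% of all genes were called (2.15% higher and 4.09% lower). The share of members called was thus near that of all genes, and nothing is read from the count about the list. Cdt1 and Mcm4 act in origin licensing, and Ccne2 is cyclin E2. Cdt1 was at 21.9, 25.9, 28.4 and 28.8 CPM in TO 2d 4h, TO 4d 4h, TOE 2d 4h and TOE 4d 4h, and at 10.6, 14.7, 14.0 and 11.2 in TO 2d 0h, TO 4d 24h, TOE 2d 24h and TOE 4d 24h, with a log2 fold change of 0.78 (SE 0.16, adjusted p = 0.0282). Every 4 h library lay above every other library. Ccne2 was at 25.1, 23.5, 30.2 and 27.9 in the 4 h libraries and at 13.5, 13.4, 12.5 and 13.5 in the others, in the same order, with a log2 fold change of 0.73 (SE 0.14, adjusted p = 0.0227). Mcm4 was at 65.0, 67.3, 80.8 and 75.6 against 42.0, 40.8, 42.2 and 41.2, with a log2 fold change of 0.52 (SE 0.12, adjusted p = 0.0421). The groups did not overlap for any of these genes.

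The 3 calls depended on single libraries. Leaving out TO 2d 0h, TO 2d 4h, TO 4d 4h, TOE 2d 4h, TOE 2d 24h or TOE 4d 4h left 0 called, without TO 4d 24h 2 were called (Ccne2 and Cdt1) and without TOE 4d 24h 3 (Hells, Ccne2 and Cdt1), and DESeq2 called 4, the same 3 and Pcna, where it called 9.57% of all genes. The shares of all genes called without each library are not given here, so the losses are not read as particular to these genes. Mcm4 was also not called at a finer clustering, and Ccne2 was not called in the GMP-like cells alone. The log2 fold changes were 0.74 to 0.87 for Cdt1, 0.67 to 0.78 for Ccne2 and 0.49 to 0.56 for Mcm4 without each of the 6 libraries whose loss ended all calls. Further members separated the hours without being called. In CPM, 27 of the 45 were higher in all 4 h libraries than in all others and 0 lower, where 25.4% of all genes did not overlap in one direction or the other. With the TMM scaling of the test, 11 were higher (Pcna, Mcm4, Mcm5, Gins2, Cdc6, Cdt1, Ccne2, Mki67, Plk1, Kif23 and Smc4) and 3 lower (Ccnb1, Birc5 and Nusap1), where 8.51% and 10.3% of all genes were. The TMM factors were 1.07 to 1.15 at 4 h and 0.887 to 0.969 at 0 or 24 h, so the split depends on the scaling.

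Cycling shares of myeloid precursors showed the same ordering by hour as the CPM values. Thinning sets the same total of UMIs for every cell, so the shares follow the CPM scale and not TMM. They are therefore not separate evidence for the split by hour, and shares with TMM scaling were not computed. The shares were 80.5%, 85.3%, 88.4% and 85.1% at 4 h and 73.8%, 72.3%, 76.7% and 74.2% at 0 or 24 h, with no overlap (84.9 ± 3.24 and 74.2 ± 1.82, SD, n = 4). Without Pcna the shares did not overlap either (77.8% to 83.6% against 67.7% to 74.1%). In GMP-like cells the shares were 82.5% to 89.7% against 67.7% to 70.7%, where the median UMIs per cell also separated, at 27833 to 41241 against 15625 to 24648, and the part of this in the thinned shares was not tested. In defensin-rich precursor-like cells the shares were 79.4% to 87.4% against 75.9% to 78.9%. Defensin-rich cells made up 57.4% to 72.5% of the class at 4 h and 42.8% to 75.9% at the other hours, which overlapped. Immature neutrophil-like cells had 15.6% to 25.3% against 8.85% to 12.6%. In mature B-like and mature neutrophil-like cells the hours separated with Pcna and overlapped without it, and the unstaged B lineage was lower at 4 h, at 96.0% to 97.3% against 97.7% to 99.1%.

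In the other classes the hour gave no member call with edgeR. In B-lineage-like cells 0 of 45 were called, where 13.8% of all genes were called, with 2 at an unadjusted p below 0.05 (Mki67 and Pcna, where 32.1% of all genes passed) and 1 called by DESeq2 (Pcna, where 20.7% were called). In erythroid-like cells 0 were called, where 0.301% of all genes were, with 12 at an unadjusted p below 0.05, where 20.9% of all genes passed, and 4 called by DESeq2 (Pcna, Mki67, Cenpe and Ccne2), where 5.87% were called. In stromal-like cells 0 were called, where 0.0302% of all genes were, with 1 at an unadjusted p below 0.05, where 18.4% of all genes passed, and 0 by DESeq2, where 5.05% were called. Members higher in all 4 h libraries were 2 in B-lineage-like (Pcna and Ckap2, where 13.5% of all genes were higher), 8 in erythroid-like (where 6.14% were) and 0 in stromal-like cells (where 11.5% were), in CPM. The 8 erythroid genes were Ccne2, Mki67, Ccna2, Aurka, Cenpe, Anln, Ckap2 and Smc4. With TMM scaling 9 members were higher (Pcna, Mcm4, Ccne2, Ccna2, Tpx2, Bub1, Plk1, Cenpe and Smc4) and Mcm6 was lower, where 7.31% and 7.17% of all genes were, so that Ccne2, Ccna2, Cenpe and Smc4 separated with both scalings.

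Pcna separated the hours in several cell groups. In B-lineage-like cells Pcna was at 239, 305, 368 and 304 CPM in TO 2d 4h, TO 4d 4h, TOE 2d 4h and TOE 4d 4h, and at 202, 223, 169 and 165 in TO 2d 0h, TO 4d 24h, TOE 2d 24h and TOE 4d 24h. Its log2 fold change was 0.61 (SE 0.18, adjusted p = 0.0568), just outside the threshold. In myeloid precursor-like cells it was at 269, 285, 335 and 345 against 191, 159.5, 194 and 125, with 0.62 (SE 0.18, adjusted p = 0.0721). In erythroid-like cells the hours overlapped in CPM and separated with TMM scaling, with 270.2 CPM as the lowest at 4 h and 270.5 as the highest otherwise, and the log2 fold change was 0.71 (SE 0.18, adjusted p = 0.103). In mature neutrophil-like cells, which were not tested, Pcna was at 340, 362, 441 and 328 against 189.5, 133, 137 and 70.2. These 4 h values lay above those of B-lineage-like cells in the same libraries, so with Pcna the neutrophil share is not read as a background level.

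Mki67 and Ccnb1 stood for the later steps. In erythroid-like cells Mki67 was at 1381, 1170, 1010 and 919 CPM at 4 h against 622, 725, 719 and 493, which did not overlap, with a log2 fold change of 0.85 (SE 0.26, adjusted p = 0.141). In B-lineage-like cells it was at 699, 676, 709 and 471 against 475, 531, 346 and 468, which overlapped through TOE 4d 4h. Ccnb1, by contrast, was at 43.7, 41.4, 60.0 and 44.0 against 49.2, 58.7, 47.1 and 53.1 in myeloid precursor-like cells, with a log2 fold change of −0.42 (SE 0.14, adjusted p = 0.119). Top2a had log2 fold changes of −0.26, −0.03, −0.04 and −0.04 in B-lineage-like, erythroid-like, myeloid precursor-like and stromal-like cells, none called, and Cdk1 had −0.38, −0.0012, 0.13 and −0.03.

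**Figure D5:**
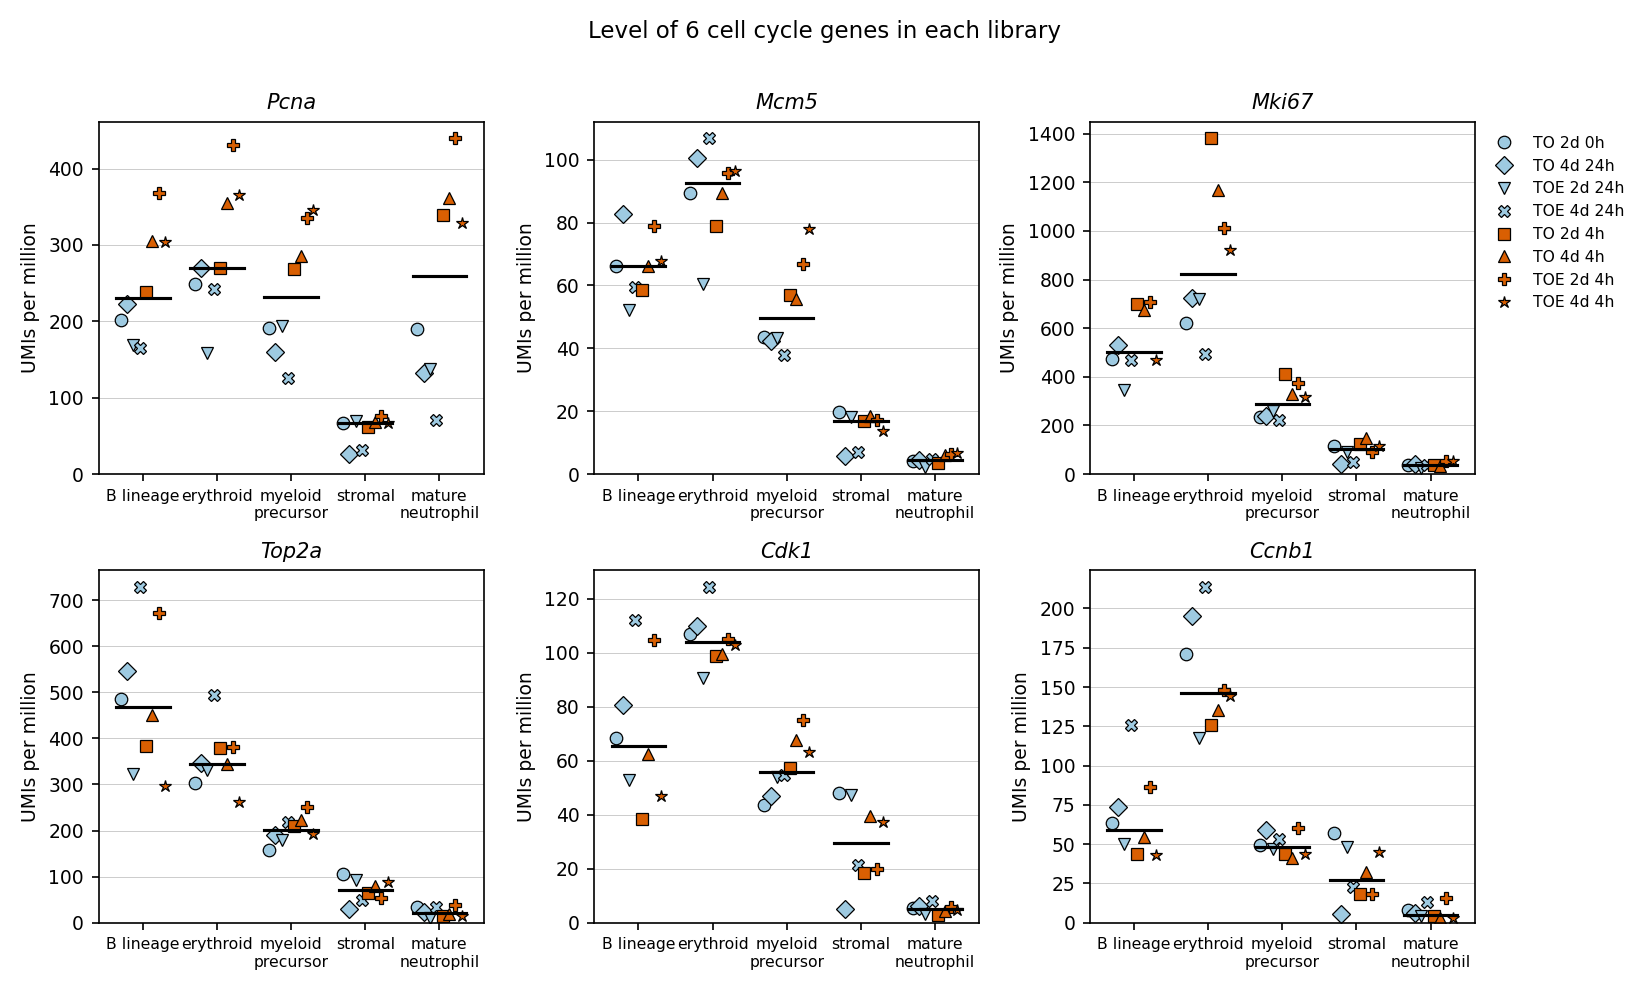
Level of Pcna, Mcm5, Mki67, Top2a, Cdk1 and Ccnb1 (vertical axes, CPM, UMIs per 1000000 UMIs of the class) in the 4 classes and in mature neutrophils. Each symbol is a library (orange, 4 h; blue, 0 or 24 h) and bars are medians over 8 libraries. For Pcna the orange symbols lie above the blue ones in B-lineage, myeloid precursor and mature neutrophil cells, and in mature neutrophils the 4 h libraries are at 328 to 441 against at most 189.5.

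Other values moved with these results. In erythroid-like cells the 10 most abundant genes, led by haemoglobin genes, took 35.5% of UMIs in TOE 2d 24h, the library with the lowest cycling share, and 5.23% in TOE 4d 24h, the library with a share of 100%, and their part in the share was not tested. That library also had 66 erythroid-like cells of at least 2000 UMIs, against 350 to 654 in the others. In stromal-like cells the 10 most abundant genes, led by collagen genes, took 30.3% of UMIs in TO 4d 24h, the library with the lowest share. They took 10.9% to 17.3% in the other TO libraries. In TOE 2d 24h, with the highest share, they took 10.7%, and in TOE 4d 4h, TOE 2d 4h and TOE 4d 24h 14.5%, 22.7% and 27.5%. Their part in the stromal-like share was not tested. Among the other pathway genes, Ccnd3, cyclin D3, rose at 4 h in myeloid precursor-like cells by 1.12 (SE 0.16, adjusted p = 0.00998), Orc1, of the origin recognition complex, by 1.04 (SE 0.17, adjusted p = 0.0130) and Cdk2, the partner of cyclin E, by 0.91 (SE 0.19, adjusted p = 0.0282). In B-lineage-like cells Rfc5 and Rfc4, which load Pcna onto DNA, had −0.91 (SE 0.18, adjusted p = 0.0198) and −0.67 (SE 0.18, adjusted p = 0.0469), and Cdc25c, a phosphatase of mitotic entry, 0.65 (SE 0.12, adjusted p = 0.0170).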

How the data were processed

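Droplet libraries were processed by the authors with Cell Ranger 9.0.0, and Seurat under R 4.0.3 is named in the submitters' processing notes, with the builds GRCh38 and mRatBN7.2 and no role for either. The deposited matrices held counts of UMIs per gene and barcode, not normalized. Of 9 samples listed, 8 were analysed here. Barcodes needed 200 genes or more and no more than 20% mitochondrial UMIs, and those with a Scrublet score above 0.25 were removed (2.43% to 4.15% of a library, because the automatic threshold called 0 to 402). Clusters came from scanpy 1.11.5 (Python 3.11.15) with 2000 variable genes, 30 components, 15 neighbours and Leiden resolution 1, leaving out 218 cell cycle and histone genes, and gave 31 clusters. A cluster was named when at least 3 markers of a list were raised 2-fold. Intervals are exact Clopper-Pearson 95% intervals and cover counting error only.

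UMIs were summed per library and class (at least 20 cells) and tested with edgeR 4.0.16 (R 4.3.3), quasi-likelihood, TMM scaling, filterByExpr and Benjamini-Hochberg adjustment over all genes. The alternatives were DESeq2 1.42.0, its size factors in edgeR, no filter on low counts, no library term or the tested factor alone, stricter cell filters, doublets kept, cell cycle genes kept in clustering, Leiden resolution 2, and each library left out. On simulated data with 200 genes changed 2-fold, the fit recovered 98.5% for erythroid-like against B-lineage-like cells (15650 genes), 64.5% for 4 h in B-lineage-like cells (18510 genes) and 55.5% for 4 h in stromal-like cells (13030 genes). The simulated counts had a fixed dispersion and a common mean profile, and only well-counted genes were changed. These rates therefore do not carry over to the real comparisons. Named in depth were Mki67, Top2a, Pcna, Mcm5, Cdk1 and Ccnb1 and, per comparison, the 3 called members with the largest rise and the 3 with the largest fall, and of the other pathway genes the 3 with the largest change. The members and gene lists were chosen with earlier results of these data known.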

Additional observations from a re-analysis of the deposited data

Results flagged for a closer look

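Among 174 groups of 4 libraries, 4 held a library far from the other libraries of its level of arm or hour. Chance alone gives about 1 in every 20 groups checked, so fewer were flagged than chance gives, and they are listed as a description. The cycling share of stromal-like cells was 4.95% in TO 4d 24h and 24.1% to 27.4% in the other TO libraries. Pcna in stromal-like cells was at 26.2 CPM in the same library and at 61.4 to 68.6 in the other TO libraries. Mki67 in B-lineage-like cells was at 471 in TOE 4d 4h and at 676 to 709 in the other 4 h libraries. Ccnb1 in myeloid precursor-like cells was at 60.0 in TOE 2d 4h and at 41.4 to 44.0 in the other 4 h libraries.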

How the results depend on the processing

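Of 530 alternative values of the comparisons, 481 kept their direction and their side of the threshold or stayed within the spread. Of 476 alternative values of 28 named member results, 436 did so, 36 lost the call and 4 turned. Leaving out single libraries gave 37 to 39 members called for erythroid-like against B-lineage-like cells, 22 to 26 for myeloid precursor-like against B-lineage-like, 41 to 45 for stromal-like against B-lineage-like, 41 to 43 for myeloid precursor-like against erythroid-like and 41 to 43 for stromal-like against myeloid precursor-like cells, which had 34 under stricter cell filters and 36 with cell cycle genes kept in the clustering. In these last 2 settings 69.8% and 71.7% of all genes were called. The shares of all genes without each library are not given for these comparisons, so the counts are read only for their spread. For 4 h against 0 or 24 h, leaving out single libraries gave 0 to 6 in B-lineage-like cells (6 without TOE 2d 4h, where 12.1% of all genes were called), 0 to 6 in erythroid-like cells (6 without TOE 2d 24h, where 13.9% were) and 0 to 3 in myeloid precursor-like cells.

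For the same contrast, B-lineage-like cells had 1 member called by DESeq2 and 1 with the tested factor alone (20.7% and 20.4% of all genes). Erythroid-like cells had 1 without a filter, 4 by DESeq2 and 3 with the factor alone (1.52%, 5.87% and 5.29%). Myeloid precursor-like cells had 9 with the factor alone, 9 under stricter cell filters and 13 with cell cycle genes kept in the clustering (11.6%, 10.9% and 16.6%). Median cycling shares at 2 UMIs, at 5 UMIs, thinned to 1000 UMIs and not thinned were 55.8%, 27.6%, 27.3% and 61.0% in B-lineage-like, 89.2%, 57.9%, 49.9% and 98.0% in myeloid precursor-like and 37.9%, 15.6%, 9.91% and 89.0% in stromal-like cells, and 79.5%, 64.9%, 62.7% and 89.2% in erythroid-like cells.

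The TOE to TO ratio of B-lineage-like cells was 1.16 at 2 UMIs and 1.14 not thinned at 2d 4h, 0.824 at 5 UMIs and 0.817 thinned to 1000 at 4d 4h, and 1.06 at 2 UMIs, 1.20 at 5 UMIs, 0.997 not thinned and 1.03 with cell cycle genes kept at 4d 24h. That of erythroid-like cells at 2d 4h was 1.00 not thinned and 0.983 with the mixed cluster added. That of stromal-like cells was 0.653 under stricter filters, 0.641 with cell cycle genes kept and 0.641 at resolution 2 at 4d 4h, where the class held 1721, 2392 and 2487 cells, and 0.938 not thinned at 4d 24h. Median S UMIs per G2M UMI were 0.456 in B-lineage-like and 0.556 in myeloid precursor-like cells without Pcna, 0.454 in erythroid-like cells as a mean over cells (0.566 in B-lineage-like and 0.531 in stromal-like cells, so that the erythroid-like value fell below both), and 0.786 and 0.847 in myeloid precursor-like cells under stricter filters and with cell cycle genes kept. Ckap2 in myeloid precursor-like cells turned to −0.24 and −0.22 against B-lineage-like and to −0.53 and −0.36 against erythroid-like cells under these settings. The split of 8 higher and 17 lower members in myeloid precursor-like against B-lineage-like cells became 16 and 9 under DESeq2's size factors. The cause of these changes was not tested. The labels give no replicate numbers that pair libraries. A fit of the 6 libraries of the matched pairs, with the pair of day and hour as a block, was added with the data in view. There edgeR called 0 members between TOE and TO in each class, as with all 8 libraries, where 0% of all genes were called. In stromal-like cells 44 members were tested. At an unadjusted p below 0.05, 1, 3, 0 and 0 members passed in B-lineage-like, erythroid-like, myeloid precursor-like and stromal-like cells. The share of all genes passing at that level is not given, so nothing is read from these counts about the list.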

Other observations

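Cell groups outside the 4 classes also held cells with at least 3 UMIs of the 45 genes. Monocyte-like cells had a median cycling share of 40.2% (35.8% to 53.4%), mast cell or basophil-like cells 44.2%, T or NK cell-like cells 29.4%, endothelial-like cells 27.3% and macrophage-like cells 25.4%. Without Pcna these medians were 35.7%, 35.6%, 24.9%, 23.6% and 20.3%, beside 5.91% in mature neutrophil-like cells. In the mixed cluster of haemoglobin and granulocyte precursor genes, 96.9% of the cells used from TO 2d 4h passed without Pcna.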
